A study of Mus musculus with 8 samples.

Results

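The cell cycle genes described here were 42 genes chosen by name from the literature of the cell cycle: 24 genes whose products act in mitosis and 18 genes that act in or shortly before S phase. The choice was made with earlier results of these data known. All 42 were among the 25466 genes of the deposited count table, and all 42 were among the 17006 genes with enough reads to be tested. They were followed by RNA sequencing in medullary thymic epithelial cells (mTECs), the cells of the thymus that show developing T cells a broad set of the body's own proteins. The cells were sorted by flow cytometry from the thymus of wild-type BL6N6 mice of 4 to 6 weeks, without treatment, as EpCAM-positive cells lacking CD45 and the cortical marker CDR1. The sort split them into 4 subsets by the surface proteins Tspan8 and MHC class II: Tspan8neg MHCIIlow, Tspan8neg MHCIIhigh, Tspan8pos MHCIIhigh and Tspan8pos MHCIIlow, with 2 biological replicates each. The sources used here do not say how many mice went into a library or whether replicates of different subsets shared mice, so p-values measure the spread between these libraries. The subsets are bulk populations, in which fewer cycling cells and less cell cycle RNA per cell cannot be told apart.

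A cell that commits to division first copies its DNA in S phase and then separates the copies in mitosis. Before S phase, E2F factors that are no longer held by the retinoblastoma family switch on genes for origin licensing, the MCM helicase and nucleotide supply. Genes for the spindle, the centromere and the CDK1 kinase follow in G2 and are switched on through B-Myb, FoxM1 and the MuvB complex, which binds a short promoter element called the cell cycle genes homology region (CHR). In the thymus, mTECs divide while they mature, and the Aire-expressing cells that arise from this stage later stop dividing.

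The libraries held between 1941518 counts (Tspan8pos MHCIIlow replicate 1) and 7783841 counts (Tspan8pos MHCIIlow replicate 2). Levels are given as CPM, a gene's counts brought to a common library size with edgeR's TMM factors, and 3 counts correspond to between 0.385 and 1.65 CPM, a limit that covers counting error only. Tspan8 itself lay between 3.65 and 14.6 CPM in the Tspan8neg libraries and between 347 and 404 CPM in the Tspan8pos libraries. The MHC class II gene H2-Ab1 lay at 1700 to 2074 CPM in Tspan8neg MHCIIlow, 4988 to 5098 CPM in Tspan8neg MHCIIhigh, 2431 to 2619 CPM in Tspan8pos MHCIIhigh and 489 to 518 CPM in Tspan8pos MHCIIlow. Epithelial markers were high in all libraries, with Epcam between 367 and 1081 CPM. The replicates of Tspan8neg MHCIIlow differed most. In this subset 41 of the 42 cell cycle genes were higher in replicate 2 than in replicate 1. The median difference was 0.61 on the log2 scale. The chi-square between these replicates was 9.34 per gene, against 3.34 to 5.24 in the other subsets. These values do not say which replicate stands apart. The 14 thymocyte markers summed to 593 and 1694 CPM in Tspan8neg MHCIIlow and to between 96.6 and 278 CPM in the other 6 libraries. Of these markers 10 were higher in both Tspan8neg MHCIIlow libraries than in every other library, and Rag2 alone was at 0 in some library. Over all tested genes, Tspan8neg MHCIIlow lay above a single other subset without overlap for 34.5% to 37%. The share above all 6 other libraries is therefore at most 34.5%. The 8 B cell and plasma cell markers summed to 723 and 1263 CPM in Tspan8neg MHCIIlow and to between 46.2 and 163 CPM elsewhere, and 3 of the 8 lay above every other library in both replicates. Both replicates were above the other 6 libraries in both sums, so a fit without replicate 2 still includes a library with raised markers. The counts and medians of the 2 phases that involve Tspan8neg MHCIIlow are also given without replicate 2, and single genes where stated. The longer gene lists and the transcription factors were not refitted without it.

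The promoters of the 2 phases differed in the short elements they held, and 4 are shown because they belong to the called genes of each phase with the highest mean CPM, not corrected for length: Mki67 and Top2a for mitosis, Mcm7 and Mcm6 for S phase. Each sequence is the 250 bases before the transcription start in RefSeq (build GRCm38.p6, all 4 genes on the minus strand). Capitals mark 3 kinds of element, searched on both strands. The CHR element was spelled TTTGAA, and its less frequent form was spelled with the letters TTCGAA. The box bound by the factor NF-Y was spelled CCAAT. E2F sites were searched with 4 spellings, namely TTTCCCGC, then TTTCGCGC, then TTTGCCGC, then TTTGGCGC. Capitals run together where sites overlap. In the GENCODE annotation of the same build Mki67 spans chr7:135689784-135716361 and Mcm6 spans chr1:128331590-128359664. Mcm7 spans chr5:138164583-138172422 there, so its printed bases lie inside the GENCODE gene, after its outermost annotated start.
Mki67, marker of cycling cells, chr7:135716380-135716629: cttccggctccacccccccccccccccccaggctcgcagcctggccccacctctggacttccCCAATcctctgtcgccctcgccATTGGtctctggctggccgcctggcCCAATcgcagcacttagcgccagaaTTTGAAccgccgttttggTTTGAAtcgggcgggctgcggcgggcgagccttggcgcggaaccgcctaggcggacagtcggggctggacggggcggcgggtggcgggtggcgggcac
Top2a, the topoisomerase that untangles sister chromosomes, chr11:99024190-99024439: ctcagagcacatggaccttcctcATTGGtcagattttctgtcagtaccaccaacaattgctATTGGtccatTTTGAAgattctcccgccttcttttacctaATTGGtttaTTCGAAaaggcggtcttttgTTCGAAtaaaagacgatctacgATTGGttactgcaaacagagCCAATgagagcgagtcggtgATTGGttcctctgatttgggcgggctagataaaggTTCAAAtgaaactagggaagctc
Mcm7, subunit of the replicative helicase, chr5:138171884-138172133: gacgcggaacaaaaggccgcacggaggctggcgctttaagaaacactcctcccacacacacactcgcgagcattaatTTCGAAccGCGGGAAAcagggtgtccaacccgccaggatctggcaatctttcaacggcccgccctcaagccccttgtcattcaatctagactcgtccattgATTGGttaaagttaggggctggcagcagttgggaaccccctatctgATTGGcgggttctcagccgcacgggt
Mcm6, subunit of the same helicase, chr1:128359706-128359955: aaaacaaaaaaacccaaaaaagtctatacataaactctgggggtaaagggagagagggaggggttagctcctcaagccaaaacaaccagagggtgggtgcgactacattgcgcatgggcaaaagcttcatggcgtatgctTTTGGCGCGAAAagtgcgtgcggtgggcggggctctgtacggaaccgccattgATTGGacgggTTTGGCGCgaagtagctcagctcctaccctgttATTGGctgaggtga

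The Mki67 promoter held 3 CCAAT boxes followed by 2 CHR elements, with first bases 116 and 98 bases before the start, and no E2F site. The Mcm6 promoter held 3 E2F sites and 2 CCAAT boxes, and no CHR element. Over windows of 300 bases, which add the 50 bases after the start, 16 of the 20 mitosis promoters found (80%) held a CHR element against 19.2% of all 32851 promoters. Of the 16 S-phase promoters, which belong to 15 genes, 3 did (18.8%). An E2F site stood in 6 of the 16 S-phase promoters (37.5%), in 1 of the 20 mitosis promoters (5%), that of Cdk1, and in 2.26% of all promoters. A CCAAT box together with a CHR element stood in 15 of the 20 mitosis promoters (75%), in 3 of the 16 S-phase promoters and in 7.52% of all promoters. These are matches of letters, not bound sites. Mcm7 has a second listed start, whose window held 1 CCAAT box and neither of the other elements. No promoter was listed for Ccna2, Aurkb, Kif20a, Tpx2, Mcm4, Gins2 and Ccne2.

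Both phases were lower in Tspan8pos than in Tspan8neg mTECs, and within Tspan8neg they stood differently: the MHCII classes overlapped in mitosis and did not in S phase. The 24 mitosis genes summed to 819 and 1349 CPM in Tspan8neg MHCIIlow, 1214 and 1131 CPM in Tspan8neg MHCIIhigh, 196 and 243 CPM in Tspan8pos MHCIIhigh, and 120 and 177 CPM in Tspan8pos MHCIIlow. The Tspan8neg libraries therefore overlapped with each other, and all 4 lay above all 4 Tspan8pos libraries. The 18 S-phase genes summed to 883 and 1190 CPM in Tspan8neg MHCIIlow, 612 and 569 CPM in Tspan8neg MHCIIhigh, 304 and 302 CPM in Tspan8pos MHCIIhigh, and 264 and 315 CPM in Tspan8pos MHCIIlow. Here the Tspan8neg MHCIIlow libraries lay above those of Tspan8neg MHCIIhigh, and the Tspan8pos subsets overlapped. Over the 8 libraries the mean log2 levels of both phases had a Pearson correlation of 0.91, which describes libraries that differ in subset and depth.

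**Figure D1:**
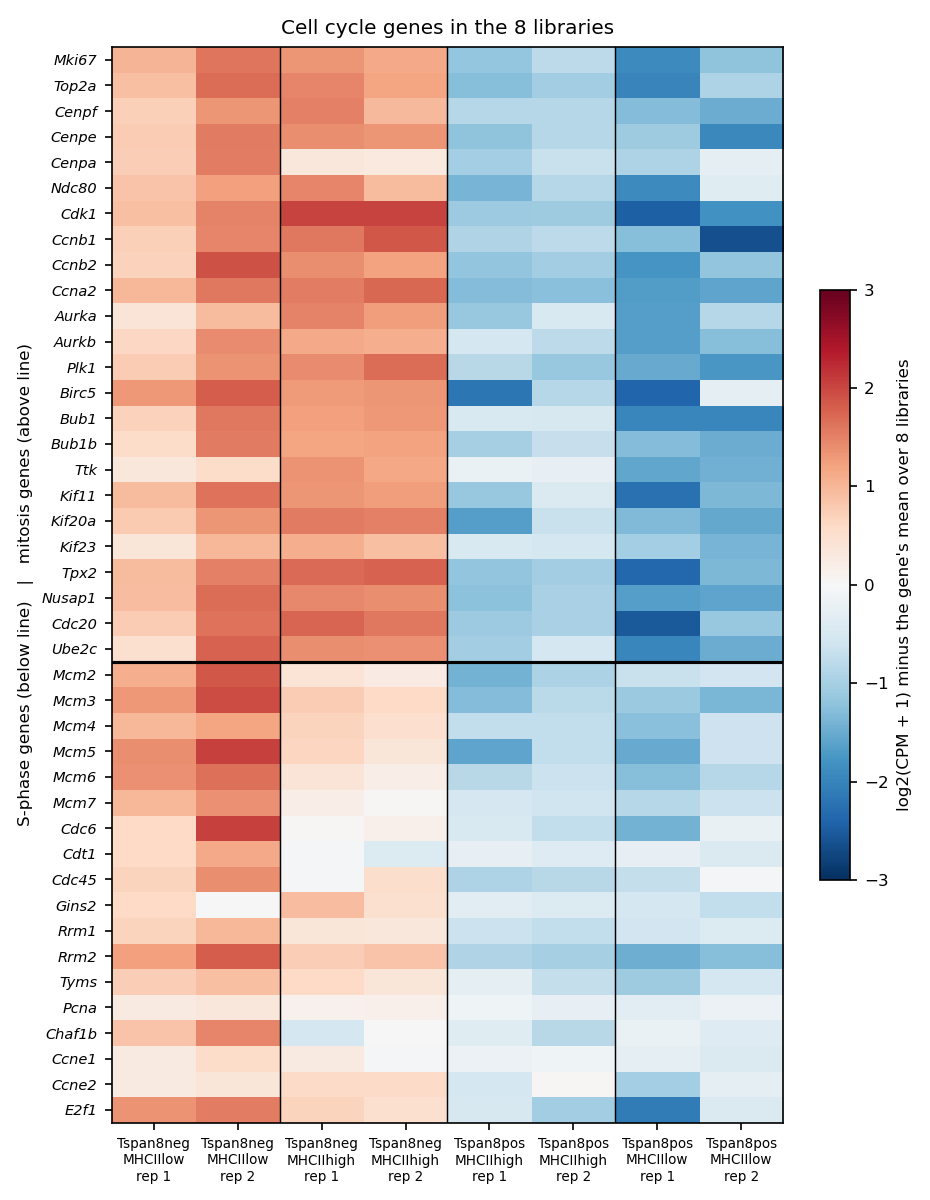
Heat map of the 42 cell cycle genes (rows, mitosis above the line, S phase below) in the 8 libraries (columns), coloured by log2(CPM + 1) minus the gene's mean over the libraries. Most mitosis genes are above their mean in all 4 Tspan8neg libraries, while many S-phase genes fade from Tspan8neg MHCIIlow to Tspan8neg MHCIIhigh.

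The balance of the phases can be followed within each library, where the scaling to library size cancels. Counting error and the prior count added before the logarithm do not cancel. They weigh most in Tspan8pos MHCIIlow replicate 1, where for example Cdk1 rests on 3 counts and Birc5 on 1. The S-phase mean minus the mitosis mean, in log2 CPM, was 0.43 and 0.13 in Tspan8neg MHCIIlow, -0.70 and -0.69 in Tspan8neg MHCIIhigh, 0.80 and 0.52 in Tspan8pos MHCIIhigh, and 1.27 and 1.25 in Tspan8pos MHCIIlow. The subsets did not overlap in this difference, which was lowest in Tspan8neg MHCIIhigh and highest in Tspan8pos MHCIIlow. The high value of Tspan8pos MHCIIlow does not mean a high S-phase level. Its S-phase sums, 264 and 315 CPM, were below those of Tspan8neg, and its mitosis sums, 120 and 177 CPM, were the lowest. The summed S-phase CPM divided by the summed mitosis CPM gave the same order, from 0.504 and 0.503 in Tspan8neg MHCIIhigh over 1.08 and 0.882 in Tspan8neg MHCIIlow and 1.55 and 1.25 in Tspan8pos MHCIIhigh to 2.20 and 1.78 in Tspan8pos MHCIIlow. These ratios are not per length, so they serve to compare libraries and not one phase with the other. Within Tspan8neg MHCIIlow, replicate 1 had the higher ratio and the lower thymocyte marker sum, 593 CPM against 1694 CPM. Both sums were above those of the other subsets, and the part of such cells in the ratio was not tested. The difference between phases is a description over members and was not tested.

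**Figure D2:**
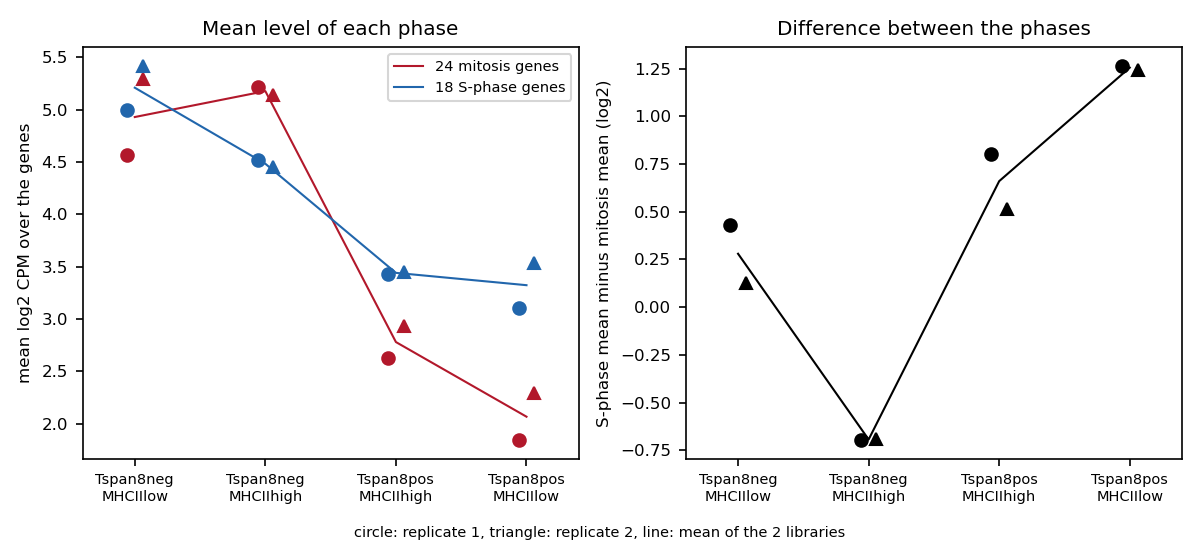
Left, mean log2 CPM over the 24 mitosis genes (red) and the 18 S-phase genes (blue) in each library. Right, the S-phase mean minus the mitosis mean, lowest in Tspan8neg MHCIIhigh (-0.70 and -0.69) and highest in Tspan8pos MHCIIlow (1.27 and 1.25). Circles are replicate 1, triangles replicate 2, and lines join the means of 2 libraries.

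Between Tspan8pos and Tspan8neg cells of the MHCIIlow class, which asks what distinguishes Tspan8-bearing cells at low MHC class II, all 24 mitosis genes were called lower in Tspan8pos. A gene was called when edgeR's quasi-likelihood test gave an adjusted p under 0.01 over all 17006 genes and the absolute log2 fold change was at least 1. In this comparison 9.34% of all tested genes were called lower. The median log2 fold change of the mitosis genes was -2.94, against -0.03 over all tested genes. Of the 18 S-phase genes 13 were called lower, with a median of -1.80. None of the 42 was called higher, where 12.1% of all tested genes were. Without Tspan8neg MHCIIlow replicate 2 the counts were 22 mitosis and 11 S-phase genes, with medians of -2.42 and -1.51.

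Mki67, whose protein coats mitotic chromosomes and marks cycling cells, was measured at 220 and 333 CPM in Tspan8neg MHCIIlow, 273 and 239 CPM in Tspan8neg MHCIIhigh, 48.4 and 62.2 CPM in Tspan8pos MHCIIhigh, and 28.0 and 46.1 CPM in Tspan8pos MHCIIlow. The lowest Tspan8neg library was above the highest Tspan8pos library, while the Tspan8neg subsets overlapped. In MHCIIlow its log2 fold change was -2.83 ± 0.26 (SE, 2 libraries per subset throughout), 7.09-fold lower in Tspan8pos (adjusted p = 8.74e-06).

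The steepest mitosis changes of this comparison were those of Bub1, Ccnb1 and Cdk1. Bub1, a kinase of the spindle checkpoint, lay at 8.71 and 17.0 CPM in Tspan8neg MHCIIlow, 13.1 and 13.7 CPM in Tspan8neg MHCIIhigh, 3.39 and 3.25 CPM in Tspan8pos MHCIIhigh, and 0.55 and 0.546 CPM in Tspan8pos MHCIIlow. The last 2 values rest on 1 and 4 counts, so the fitted log2 fold change of -4.50 ± 0.54 (adjusted p = 6.9e-05) has little depth behind its low end. Ccnb1, cyclin B1, the partner of CDK1 at entry into mitosis, lay at 16.3 and 28.1 CPM, 30.2 and 37.0 CPM, 4.58 and 5.08 CPM, and 3.30 and 0.682 CPM in the same order of subsets. Its Tspan8pos MHCIIlow values rest on 6 and 5 counts, and its log2 fold change in MHCIIlow was -4.09 ± 0.52 (adjusted p = 0.000108). Cdk1, the kinase that drives mitosis, lay at 26.1 and 39.8 CPM, 58.0 and 58.4 CPM, 5.78 and 5.89 CPM, and 1.65 and 3.14 CPM. All Cdk1 values in Tspan8neg were above all in Tspan8pos, and the log2 fold change in MHCIIlow was -3.57 ± 0.31 (adjusted p = 6.66e-06). Without Tspan8neg MHCIIlow replicate 2 the log2 fold changes were -2.47 for Mki67, -3.93 for Bub1, -3.67 for Ccnb1 and -3.21 for Cdk1, and all 4 were still called.

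Among S-phase genes the steepest were Rrm2, Mcm3 and Mcm5. Rrm2, the subunit of ribonucleotide reductase that limits the supply of DNA precursors, lay at 40.7 and 62.5 CPM in Tspan8neg MHCIIlow, 28.7 and 31.5 CPM in Tspan8neg MHCIIhigh, 8.56 and 7.92 CPM in Tspan8pos MHCIIhigh, and 5.497 and 6.42 CPM in Tspan8pos MHCIIlow. Its 4 subsets did not overlap, and its log2 fold change in MHCIIlow was -3.07 ± 0.27 (adjusted p = 6.66e-06). Mcm3, a subunit of the helicase that opens DNA at origins, lay at 71.6 and 115 CPM, 49.3 and 43.8 CPM, 11.2 and 15.8 CPM, and 12.6 and 10.5 CPM in the same order. Mcm5, of the same helicase, lay at 75.8 and 120 CPM, 44.9 and 36.7 CPM, 8.76 and 16.7 CPM, and 9.34 and 18.02 CPM. For both, the Tspan8pos subsets overlapped and Tspan8neg MHCIIlow was highest, with log2 fold changes in MHCIIlow of -3.06 ± 0.27 (adjusted p = 7.52e-06) for Mcm3 and -2.69 ± 0.34 (adjusted p = 8.88e-05) for Mcm5. Without Tspan8neg MHCIIlow replicate 2 they were -2.69 for Mcm3, -2.30 for Mcm5 and -2.72 for Rrm2, all still called. By role, all 6 MCM subunits and all 3 nucleotide supply genes (Rrm1, Rrm2 and the thymidylate synthase Tyms) were called lower, but 2 of the 4 licensing and firing genes (Cdc6 and Cdt1) and 1 of the 3 genes Ccne1, Ccne2 and E2f1, which was E2f1.

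The same comparison in the MHCIIhigh class again put all 24 mitosis genes lower in Tspan8pos, with a median log2 fold change of -2.52, where 7.45% of all tested genes were called lower. Only 8 of the 18 S-phase genes were called lower there, with a median of -1.09, and none of the 42 was called higher, against 11% of all tested genes. Leaving out Tspan8pos MHCIIhigh replicate 1 left 4 S-phase and 16 mitosis calls. The largest mitosis changes were those of Cdk1 at -3.31 ± 0.26 (adjusted p = 3.2e-06), Birc5 and Ccna2. Birc5, or survivin, a member of the chromosomal passenger complex, lay at 19.1 and 27.3 CPM in Tspan8neg MHCIIlow, 18.5 and 19.4 CPM in Tspan8neg MHCIIhigh, 0.797 and 3.45 CPM in Tspan8pos MHCIIhigh, and 0.55 and 5.60 CPM in Tspan8pos MHCIIlow. The Tspan8pos replicates of Birc5 were far apart, and its log2 fold change in MHCIIhigh was -3.15 ± 0.59 (adjusted p = 0.00157). That call was lost without Tspan8neg MHCIIhigh replicate 2 and without Tspan8pos MHCIIhigh replicate 1. Ccna2, cyclin A2, which acts in both S phase and early mitosis, lay at 30.1 and 45.5 CPM, 43.9 and 50.4 CPM, 5.38 and 5.49 CPM, and 3.85 and 4.23 CPM, with a log2 fold change of -3.11 ± 0.25 (adjusted p = 4.27e-06). Of the S-phase genes Rrm2 (-1.87 ± 0.25, adjusted p = 0.000151), Mcm3 (-1.78 ± 0.25, adjusted p = 0.000261) and Mcm5 (-1.68 ± 0.33, adjusted p = 0.00235) again changed most. The Mcm5 call was lost without Tspan8neg MHCIIhigh replicate 1 and without Tspan8pos MHCIIhigh replicate 1. Mki67 had a log2 fold change of -2.21 ± 0.24 in MHCIIhigh (adjusted p = 3.99e-05). Thymocyte markers in this comparison overlapped between the subsets, at 133 and 232 CPM in Tspan8neg and 96.6 and 155 CPM in Tspan8pos. The sums of the other marker lists did not overlap and ran in both directions. B cell and plasma cell markers summed to 83.8 and 120 CPM in Tspan8neg against 46.2 and 65.4 CPM in Tspan8pos. Fibroblast and endothelial markers summed to 225 and 215 CPM against 119 and 106 CPM. Among them the fibroblast genes Col1a1 (-2.31) and Pdgfrb (-1.27) were called lower, and the endothelial genes Pecam1, Cdh5, Kdr and Vwf were not called. The sum of cortical epithelial markers was higher in Tspan8pos, at 263 and 292 CPM in Tspan8neg against 318 and 331 CPM. That sum hides members that went the other way. Ctsl had a log2 fold change of 0.76, while Psmb11 (-0.45), Prss16 (-0.92), Ly75 (-0.67), Enpep (-0.43) and Cxcl12 (-0.35) were lower. None of these was called. The sum of myeloid and dendritic cell markers was also higher in Tspan8pos, at 395 and 458 CPM in Tspan8neg against 471 and 494 CPM. Its called members were split, with Itgam (3.06) higher and Flt3 (-2.52) and Adgre1 (-2.57) lower in Tspan8pos. Their part in the result was not tested.

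**Figure D3:**
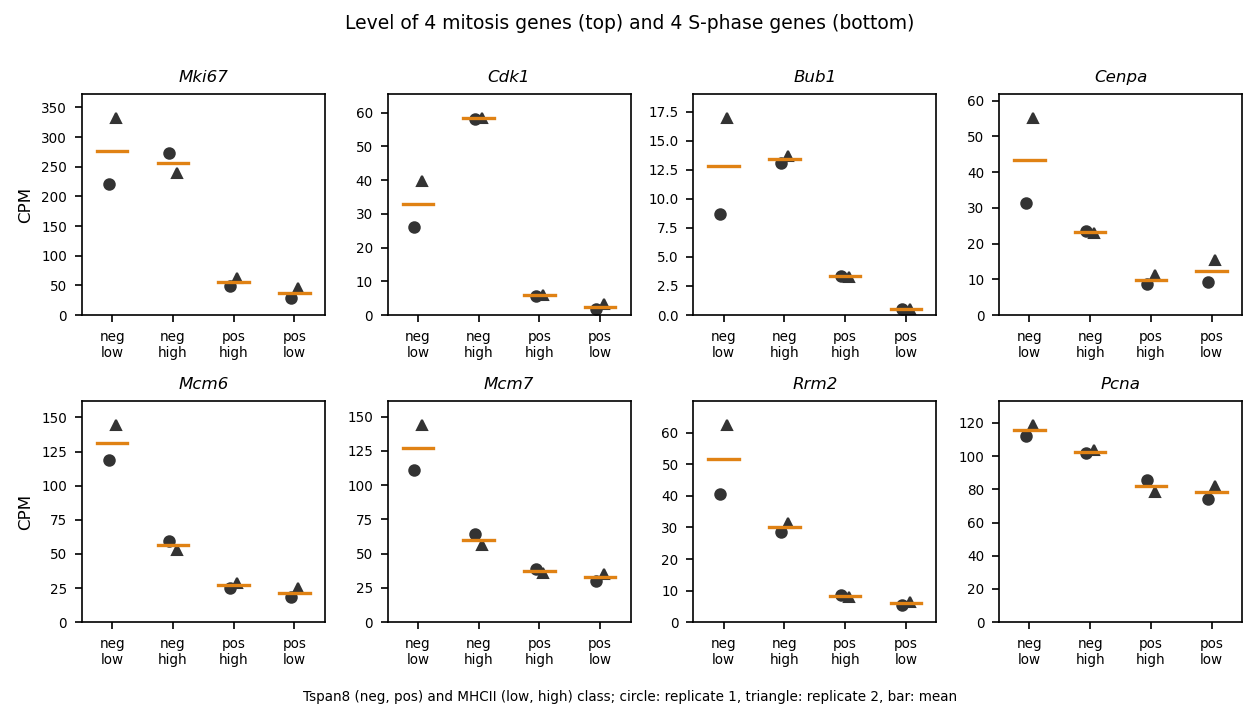
CPM of 4 mitosis genes (top) and 4 S-phase genes (bottom) in each library, with the bar at the mean of 2 libraries. Mki67 and Bub1 overlap between the Tspan8neg subsets, Mcm6 falls from 119 and 145 CPM in Tspan8neg MHCIIlow to 59.7 and 52.7 CPM in Tspan8neg MHCIIhigh, and Pcna spans 74.2 to 119 CPM.

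Within Tspan8neg cells, MHCIIhigh was compared with MHCIIlow, a class that the study describes as a mixture of immature and of specialised mTECs. Here S-phase genes were called and mitosis genes were not, a difference between the phases that was not itself tested. No mitosis gene was called in either direction, with a median log2 fold change of 0.16 and the cyclins with Cdk1 highest among the mitosis roles at 0.46. In the same comparison 7 of the 18 S-phase genes were called lower in MHCIIhigh, with a median of -0.90, where 9.67% of all tested genes were called lower and 13.1% higher. The 7 were Mcm2, Mcm3, Mcm5, Mcm6 and Mcm7, the licensing factor Cdt1 and Chaf1b, a subunit of the chaperone that loads histones on new DNA. Mcm4 had a log2 fold change of -0.51 ± 0.18 (adjusted p = 0.0403) and was not called.

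The largest of these were the changes of Chaf1b, Mcm5 and Mcm6. Chaf1b lay at 14.6 and 22.9 CPM in Tspan8neg MHCIIlow, 4.99 and 7.69 CPM in Tspan8neg MHCIIhigh, 5.78 and 3.86 CPM in Tspan8pos MHCIIhigh, and 6.60 and 5.60 CPM in Tspan8pos MHCIIlow, so that Tspan8neg MHCIIlow stood above the other 3 subsets, which overlapped. Its log2 fold change was -1.54 ± 0.35 (adjusted p = 0.00496). Mcm6 lay at 119 and 145 CPM, 59.7 and 52.7 CPM, 25.3 and 28.6 CPM, and 18.1 and 24.7 CPM, without overlap between the subsets, and its log2 fold change was -1.23 ± 0.17 (adjusted p = 0.000184). Mcm5 had a log2 fold change of -1.27 ± 0.29 (adjusted p = 0.00504). Mcm7, whose Tspan8neg libraries lay at 111 and 144 CPM against 64.1 and 56.5 CPM, had a log2 fold change of -1.09 ± 0.16 (adjusted p = 0.000335), and its exons overlap Mir25 and Mir93 on the same strand, so its counts are uncertain. On the mitosis side Mki67 had a log2 fold change of -0.11 ± 0.23 (adjusted p = 0.723). Cdk1 had 0.81 ± 0.22 (adjusted p = 0.0111), and the centromeric histone Cenpa had -0.91 ± 0.28 (adjusted p = 0.0216), the lowest of the mitosis genes.

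The S-phase calls within Tspan8neg depended on single libraries. Without Tspan8neg MHCIIlow replicate 2, 1 of the 18 S-phase genes was called, Mcm6, and the median was -0.51, while the median of the mitosis genes was 0.64 and 1 was called, Cdk1 at 1.15 (adjusted p = 0.000908). Leaving out Tspan8neg MHCIIhigh replicate 1 left 2 S-phase calls, and leaving out its replicate 2 left 1. Without Tspan8neg MHCIIlow replicate 1 there were 9 S-phase calls, the mitosis median was -0.15, and Cenpa was called at -1.26 (adjusted p = 0.000653). Of the 13 tested thymocyte markers 9 were called lower in Tspan8neg MHCIIhigh in the same comparison. Cortical epithelial markers summed to 1126 and 881 CPM in Tspan8neg MHCIIlow against 263 and 292 CPM in Tspan8neg MHCIIhigh. Of these Ctsl (-2.47) and Cxcl12 (-2.92) were called lower in MHCIIhigh, and Enpep (1.33) higher. Fibroblast and endothelial markers summed to 328 and 303 CPM against 225 and 215 CPM. There Pdgfra, Pecam1, Cdh5 and Vwf were called lower, and Col1a1 (1.66) and Pdgfrb (1.42) higher. The sum of myeloid and dendritic cell markers rose, from 64.3 and 130 CPM to 395 and 458 CPM. The part of cells with such markers in the S-phase result was not tested.

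Within Tspan8pos cells no cell cycle gene was called between MHCIIhigh and MHCIIlow, where 4.59% of all tested genes were called higher and 2.62% lower. The median log2 fold change was 0.64 for mitosis and 0.07 for S phase. Among mitosis genes Bub1 had the largest value, 2.55 ± 0.61 (adjusted p = 0.0146), followed by Ttk, a second spindle checkpoint kinase, at 2.12 ± 0.55 (adjusted p = 0.0215). Ttk lay at 2.99 and 2.84 CPM in Tspan8pos MHCIIhigh and at 0.55 and 0.682 CPM in Tspan8pos MHCIIlow, where it rests on 1 and 5 counts. Bub1 passed the threshold when genes with low counts were kept (adjusted p = 0.00939) and when either Tspan8neg MHCIIlow library was left out (adjusted p = 0.00298 and 0.00374). Cdk1 had 1.07 ± 0.37 (adjusted p = 0.071), and Mki67 had 0.50 ± 0.26 (adjusted p = 0.22).

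**Figure D4:**
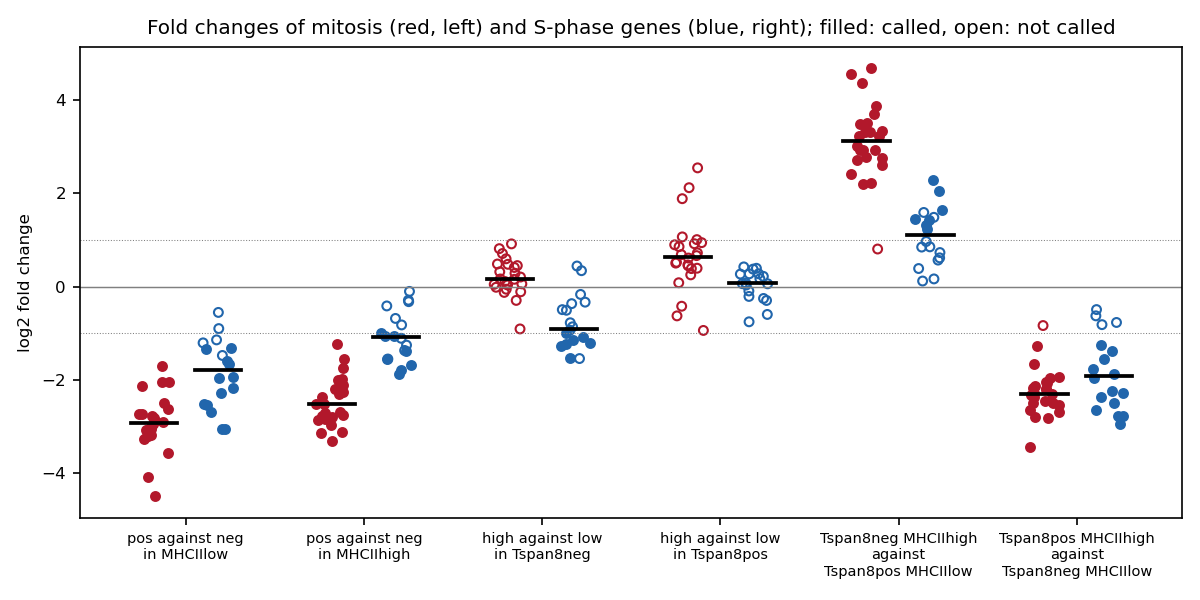
Log2 fold change of each mitosis gene (red) and S-phase gene (blue) in the 6 pairs of subsets. Filled points were called by edgeR, open points were not, and bars are medians. Mitosis lies near 0 between MHCIIhigh and MHCIIlow in Tspan8neg (median 0.16) while S phase lies below it (median -0.90).

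The remaining pairs crossed both sort markers. Each subset enters 3 of the 6 pairs, so these values are not independent of those above. In Tspan8neg MHCIIhigh against Tspan8pos MHCIIlow, 23 of the 24 mitosis genes were called higher, with a median of 3.12, where 14.6% of all tested genes were, and 7 of the 18 S-phase genes were, with a median of 1.10. Ccnb1 (4.68 ± 0.51, adjusted p = 2e-05), Bub1 (4.55 ± 0.53, adjusted p = 3.53e-05) and Cdk1 (4.38 ± 0.30, adjusted p = 6.82e-07) led the mitosis genes. Cenpa was not called (0.80 ± 0.31, adjusted p = 0.0478). Rrm2 (2.29 ± 0.27, adjusted p = 3.71e-05), Mcm3 (2.05 ± 0.27, adjusted p = 9.35e-05) and Gins2 led the S-phase genes. Gins2, part of the active helicase, lay at 8.43 and 5.19 CPM in Tspan8neg MHCIIlow, 10.8 and 7.69 CPM in Tspan8neg MHCIIhigh, 3.98 and 3.66 CPM in Tspan8pos MHCIIhigh, and 3.30 and 2.73 CPM in Tspan8pos MHCIIlow. Its 2 Tspan8neg subsets overlapped and lay above the Tspan8pos libraries, and it was called in no other pair than this (1.65 ± 0.43, adjusted p = 0.0074). It lost the call without any 1 of the 6 libraries outside Tspan8neg MHCIIlow. Leaving out Tspan8pos MHCIIlow replicate 1, the shallowest library, left 4 S-phase calls.

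In Tspan8pos MHCIIhigh against Tspan8neg MHCIIlow, 23 mitosis genes and 14 S-phase genes were called lower, where 10.3% of all tested genes were, with medians of -2.30 and -1.92. The phases were closest in this pair. Birc5 (-3.45 ± 0.59, adjusted p = 0.000704), Ccnb2 and Ccna2 (-2.80 ± 0.26, adjusted p = 8.64e-06) changed most among mitosis genes. Ccnb2, cyclin B2, lay at 16.6 and 39.8 CPM in Tspan8neg MHCIIlow, 27.9 and 24.4 CPM in Tspan8neg MHCIIhigh, 3.78 and 4.27 CPM in Tspan8pos MHCIIhigh, and 2.20 and 3.82 CPM in Tspan8pos MHCIIlow, with a log2 fold change of -2.81 ± 0.41 (adjusted p = 0.000244). Ttk was not called (-0.84 ± 0.40, adjusted p = 0.11). Mcm5 (-2.95 ± 0.33, adjusted p = 3.72e-05), Mcm2 and Mcm3 (-2.79 ± 0.25, adjusted p = 7.96e-06) changed most among S-phase genes. Mcm2 lay at 61.0 and 106 CPM, 37.8 and 34.0 CPM, 9.96 and 14.2 CPM, and 17.6 and 18.7 CPM, with a log2 fold change of -2.79 ± 0.27 (adjusted p = 1.37e-05). Without Tspan8neg MHCIIlow replicate 2 the counts were 20 mitosis and 12 S-phase genes, and without Tspan8pos MHCIIhigh replicate 2 there were 9 S-phase calls.

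Whether the Tspan8 difference itself changed with MHC class II was tested as an interaction. It was called for 2 S-phase genes, Mcm6 and Mcm7, and for no mitosis gene, where 2.24% of all tested genes were called in that direction. The log2 fold change of Mcm6 between Tspan8pos and Tspan8neg was -2.55 ± 0.19 (adjusted p = 1.96e-06) in MHCIIlow and -1.05 ± 0.18 (adjusted p = 0.000858) in MHCIIhigh, a difference of 1.50 ± 0.26 (adjusted p = 0.00446). For Mcm7 the values were -1.94 ± 0.18 (adjusted p = 8.63e-06) and -0.69 ± 0.17 (adjusted p = 0.00813), a difference of 1.25 ± 0.24 (adjusted p = 0.00801). Both calls held without either Tspan8neg MHCIIlow library and were lost without any 1 of the other 6 libraries, in each of which both differences stayed positive. Both were also lost after thinning to the smallest total (adjusted p = 0.0103 for Mcm6 and 0.0223 for Mcm7), and Mcm7 was lost with upper quartile scaling (adjusted p = 0.0121). The largest mitosis value was that of Bub1, 2.49 ± 0.70 (adjusted p = 0.0422).

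The S-phase genes were the less uniform of the phases. Each mitosis gene was called in at least 3 of the 6 pairs, whereas Pcna, Ccne1 and Ccne2 were called in none. Pcna, the sliding clamp of the replication fork, lay at 112 and 119 CPM in Tspan8neg MHCIIlow, 102 and 104 CPM in Tspan8neg MHCIIhigh, 85.4 and 78.6 CPM in Tspan8pos MHCIIhigh, and 74.2 and 82.0 CPM in Tspan8pos MHCIIlow. All Tspan8neg values were above all Tspan8pos values, but the log2 fold change of -0.56 ± 0.13 in MHCIIlow (adjusted p = 0.00677) was under the fold limit. Ccne1 and Ccne2, the E cyclins that partner CDK2 at the start of S phase, were low throughout. Ccne1 lay at 9.27 and 11.6 CPM, 9.36 and 7.31 CPM, 6.57 and 6.91 CPM, and 6.05 and 5.32 CPM in the same order of subsets. Ccne2 lay at 2.81 and 3.06 CPM, 3.74 and 3.72 CPM, 1.19 and 2.23 CPM, and 0.55 and 1.64 CPM. Per kilobase of exon Pcna had the highest mean level of the 42 (39.4 CPM per kb), followed by Mki67 (15.5), Mcm7 (14.6) and Mcm6 (12.7). Ccne2 (0.678), Ttk (0.949) and Ndc80 (1.06 CPM per kb), an outer kinetochore protein, had the lowest. The length was that of all annotated exons of a gene, not of the transcripts in use, so this scale compares genes only roughly.

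Longer lists of genes of the same phases gave the same order for Tspan8. In Tspan8pos of the MHCIIlow and MHCIIhigh classes 9.34% and 7.45% of all tested genes were called lower, and 12.1% and 11% higher. Of 41 other mitosis genes 30 were called lower and 1 higher in Tspan8pos of the MHCIIlow class, and 35 were lower and 0 higher in MHCIIhigh. The condensin subunits Ncapd2 (-2.30 and -1.38 in MHCIIlow and MHCIIhigh) and Smc4 (-1.77 and -1.92) were among the most abundant. The exception was Pttg1, securin, the guardian of sister chromatid cohesion, with 1.58 in MHCIIlow. Of 35 other S-phase genes 23 and 9 were called lower and 0 higher, among them Uhrf1 (-3.11 and -2.02), which carries DNA methylation through replication. Between MHCIIhigh and MHCIIlow in Tspan8neg these lists gave shares below those of all tested genes: 2 of the 35 S-phase genes were called lower, the maintenance methyltransferase Dnmt1 (-1.07) and thymidine kinase Tk1 (-2.18), with a median of -0.46, where 9.67% of all tested genes were called lower. Of the 41 mitosis genes 3 were called higher there (Aspm at 1.49, Melk at 1.33 and Anln at 1.18) and 1 lower (Ncapd2 at -1.02), with a median of 0.31, where 13.1% of all tested genes were called higher.

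The regulators of G1, the phase before S phase, moved in both directions. Of 7 CDK inhibitors 3 were called higher in Tspan8pos of both MHCII classes, where 12.1% (MHCIIlow) and 11% (MHCIIhigh) of all tested genes were. Cdkn1a, p21, lay at 218 and 202 CPM in Tspan8neg MHCIIlow, 189 and 178 CPM in Tspan8neg MHCIIhigh, 717 and 710 CPM in Tspan8pos MHCIIhigh, and 953 and 902 CPM in Tspan8pos MHCIIlow, with log2 fold changes of 2.14 ± 0.12 in MHCIIlow (adjusted p = 3.79e-07) and 1.96 ± 0.12 in MHCIIhigh (adjusted p = 7.27e-07). All its Tspan8pos libraries were above all its Tspan8neg libraries, the opposite of the mitosis genes. Cdkn2a, the Ink4a and Arf gene, lay at 7.30 and 6.84 CPM, 17.1 and 16.4 CPM, 67.7 and 77.8 CPM, and 70.4 and 57.2 CPM in the same order. It had log2 fold changes of 3.15 ± 0.21 and 2.12 ± 0.17 (adjusted p = 8.24e-07 and 4.16e-06), and its neighbour Cdkn2b, at 13.8 and 18.9 CPM, 47.2 and 50.2 CPM, 157 and 171 CPM, and 93.4 and 93.8 CPM, had 2.51 ± 0.18 and 1.75 ± 0.15 (adjusted p = 1.33e-06 and 7.05e-06). Cdkn1c, p57, lay at 192 and 238 CPM in Tspan8pos MHCIIhigh and between 59.4 and 102 CPM in the other 6 libraries, with 1.33 ± 0.14 in MHCIIhigh (adjusted p = 3.44e-05), -0.67 ± 0.15 in MHCIIlow (adjusted p = 0.00454, under the fold limit) and an interaction of 2.00 ± 0.21 (adjusted p = 0.00036). Cdkn1b, Cdkn2c and Cdkn2d were not called in these comparisons.

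Among the 6 D cyclins and their kinases, which start the cycle by phosphorylating the retinoblastoma protein, Ccnd2 lay at 230 and 247 CPM in Tspan8neg MHCIIlow, 496 and 462 CPM in Tspan8neg MHCIIhigh, 104 and 103 CPM in Tspan8pos MHCIIhigh, and 31.9 and 36.4 CPM in Tspan8pos MHCIIlow. Its subsets did not overlap, and it was called in all 6 pairs, higher in MHCIIhigh than in MHCIIlow both in Tspan8neg (1.01 ± 0.13, adjusted p = 0.000109) and in Tspan8pos (1.58 ± 0.14, adjusted p = 3.65e-05). Ccnd1 was highest in Tspan8neg MHCIIlow, from 96.6 and 79.0 CPM there to 19.8 and 19.7 CPM in Tspan8pos MHCIIlow (-2.15 ± 0.18, adjusted p = 4.42e-06). Cdk4 lay at 193 and 223 CPM, 132 and 120 CPM, 66.7 and 66.2 CPM, and 61.0 and 79.3 CPM in the same order, and was called lower in Tspan8pos of the MHCIIlow class (-1.54 ± 0.16, adjusted p = 2.11e-05). Cdk6 was too (-2.65 ± 0.40, adjusted p = 0.000358), but its Tspan8neg MHCIIlow libraries lay at 83.1 and 227 CPM, the higher value in the library with the highest thymocyte marker sum. Without that library the log2 fold changes in MHCIIlow were -1.73 for Cdk6, -1.42 for Cdk4 and -2.29 for Ccnd1, all still called. Ccnd3 was called lower only between MHCIIhigh and MHCIIlow in Tspan8neg (-1.01 ± 0.21, adjusted p = 0.00309), a call that other settings lost, among them the fit without Tspan8neg MHCIIlow replicate 2 (-0.58, adjusted p = 0.0121), and Cdk2 was called in no pair.

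**Figure D5:**
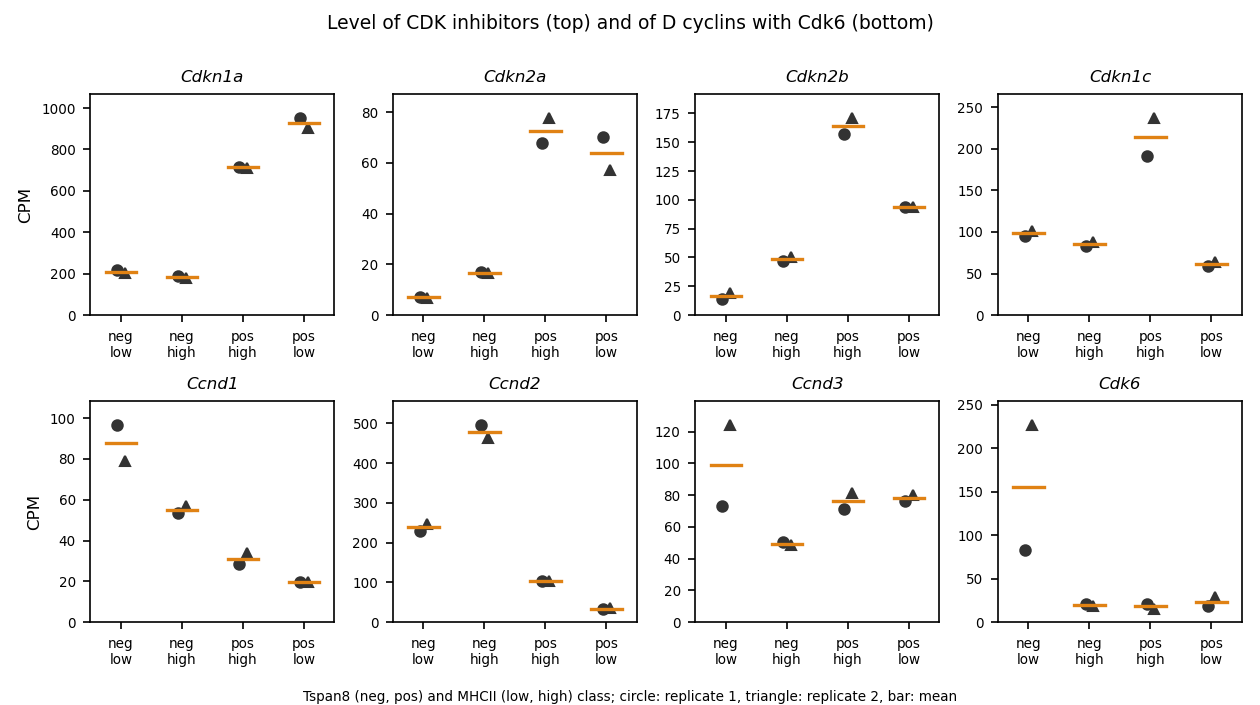
CPM of 4 CDK inhibitors (top) and of the D cyclins with Cdk6 (bottom) in each library, with the bar at the mean of 2 libraries. Cdkn1a lies between 178 and 218 CPM in Tspan8neg and between 710 and 953 CPM in Tspan8pos, whereas Ccnd2 peaks in Tspan8neg MHCIIhigh at 496 and 462 CPM.

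The transcription factors of the cycle were partly in step with the phases. Of 12 pocket proteins, E2F and DP factors 6 were called lower and 0 higher in Tspan8pos of the MHCIIlow class, and 4 and 0 in MHCIIhigh. Of all tested genes 9.34% and 7.45% were called lower there. Tfdp1, the dimer partner of E2Fs, was the most abundant of these factors, with -1.79 and -1.72. It was called higher in MHCIIhigh than in MHCIIlow in Tspan8neg (1.06) as well as in Tspan8pos (1.13). Of 7 regulators of G2 and mitosis genes, Foxm1 was called lower in both classes (-2.67 and -1.99) and Mybl2, which encodes B-Myb, in MHCIIlow (-1.76), while the MuvB subunits Lin9, Lin37, Lin52, Lin54 and Rbbp4 were called in neither. Of 9 genes that switch CDK1 and CDK2 on or off, Cks1b (-2.75 and -1.87) and the phosphatase Cdc25c (-2.70 and -2.07) were called in both classes, and Cdc25c was also called higher in MHCIIhigh than in MHCIIlow in Tspan8neg (1.95) and in Tspan8pos (2.58).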

How the data were processed

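RNA was sequenced from 8 sorted mTEC libraries, 2 per subset. The labels name a stranded mRNA kit and the study's methods describe pre-amplified cDNA, tagmentation and single-end reads of 54 bases, so use of strand was not settled. Overlapping genes are therefore uncertain: Top2a and Mcm7 overlap other genes on the same strand, and Ccna2, Plk1, Cdc20, Kif20a, Nusap1, Ube2c, Mcm7, Gins2, Ccne2 and Cdc45 on the opposite strand. The authors deposited estimated counts per gene, and the submitters' processing notes name Salmon 1.8.0, DESeq2 1.30.0, FastQC and the build mm10.

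Expected counts were rounded and fitted over all 8 libraries with the quasi-likelihood test of edgeR 4.0.16 (R 4.3.3, TMM factors, filterByExpr, Benjamini-Hochberg adjustment over 17006 of 25466 genes). A call needed both an adjusted p below 0.01 and a log2 change of 1 or more in either direction. Phase means used log2 CPM with a prior count of 2. Gene names came from GENCODE (25336 genes matched) and promoters from RefSeq. Totals ran from 1941518 to 7783841 counts. The tests were tested on simulated data.

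All 42 genes could be named. Values in every library were given for Mki67 and for the 3 called genes of each phase with the largest change in each pair, for genes never called, and for most G1 regulators. Other lists were given by counts and up to 4 abundant called genes. Members and lists were chosen with earlier results of these data known. DESeq2 1.42.0, other scalings, filters and thresholds, thinning, the replicate number as a block and leaving out each library were tried as alternatives.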

Additional observations from a re-analysis of the deposited data

Results flagged for a closer look

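The Tspan8 difference of 2 S-phase genes changed with MHC class II by the test of that difference itself. It was smaller in MHCIIhigh than in MHCIIlow by 1.50 on the log2 scale for Mcm6 and by 1.25 for Mcm7, where edgeR's interaction term gave adjusted p = 0.00446 and 0.00801. Both helicase subunits were highest in both Tspan8neg MHCIIlow libraries. Leaving out 1 of the other 6 libraries gave adjusted p between 0.0147 and 0.0563, so neither call held there. Both calls were also lost after thinning all libraries to the smallest total (adjusted p = 0.0103 for Mcm6 and 0.0223 for Mcm7), and that of Mcm7 with upper quartile scaling (adjusted p = 0.0121).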

How the results depend on the processing

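The direction of each phase median between Tspan8pos and Tspan8neg was the same under all alternatives run. Within Tspan8neg the mitosis median was -0.15 without Tspan8neg MHCIIlow replicate 1, and Mki67 turned to 0.016 with upper quartile scaling, 0.21 without Tspan8neg MHCIIlow replicate 2 and 0.07 without Tspan8neg MHCIIhigh replicate 2, with a range of -0.39 to 0.21 over the libraries left out. The causes were not tested. S-phase calls there were 4 with DESeq2 and 3 with the 4 libraries of the comparison alone.

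In MHCIIhigh the Tspan8 S-phase median was -1.15 with DESeq2, -1.15 with its size factors, -1.35 with upper quartile scaling and -1.22 after thinning, and the mitosis median was -2.79 with upper quartile scaling. That scaling put the median of all genes at -0.29 there, against -0.03 in the main fit. It gave 11 S-phase calls for Tspan8neg MHCIIhigh against Tspan8pos MHCIIlow and 1 for the interaction. Mitosis calls within Tspan8pos were 1 without a count filter and 2 at an adjusted p under 0.05. The interaction then gave 4 S-phase calls and 1 mitosis call, and thinning gave 0 S-phase calls, with adjusted p of 0.0103 for Mcm6 and 0.0223 for Mcm7.

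Leaving out each library in turn gave, for Tspan8 in MHCIIhigh, 4 to 8 S-phase calls, S-phase medians of -1.20 to -1.06 and mitosis medians of -2.68 to -2.29. Within Tspan8neg it gave 1 to 9 S-phase and 0 to 1 mitosis calls, S-phase medians of -1.13 to -0.51 and mitosis medians of -0.15 to 0.64, and within Tspan8pos 0 to 1 mitosis calls. Tspan8neg MHCIIhigh against Tspan8pos MHCIIlow gave 4 to 7 S-phase calls and medians of 1.00 to 1.54 (S phase) and 3.01 to 3.49 (mitosis). Tspan8pos MHCIIhigh against Tspan8neg MHCIIlow gave 9 to 14 S-phase calls and medians of -2.10 to -1.58. The interaction gave 0 to 5 S-phase and 0 to 1 mitosis calls.

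Over all genes, interaction calls numbered 783, against 1267 without a filter, 1754 at an adjusted p under 0.05 and 189 to 1385 without a library. MHCIIhigh against MHCIIlow in Tspan8pos gave 1226, and 1858 at 0.05. Same-numbered replicates had correlations of 0.00402 to 0.0924, all under 0.1, so they were not treated as pairs. Whether they share mice is not given in the sources used here. With that number as a block, mitosis calls within Tspan8pos were 1 and interaction calls over all genes 1236. Where counts were low, as for Bub1, Ttk and Ccnb1 in Tspan8pos MHCIIlow, depth limits the size of the changes.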

Other observations

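Single genes of the Myc network and of the p53 list differed between Tspan8pos and Tspan8neg mTECs. Myc, a growth factor-induced activator of proliferation genes, was called in neither class (edgeR log2 fold changes of -0.69 ± 0.17 in MHCIIlow, adjusted p = 0.00641, and -0.07 ± 0.16 in MHCIIhigh, adjusted p = 0.771). The Max-binding repressors Mxd1 (1.83 and 1.22) and Mxi1 (1.35 and 1.97) were called higher in Tspan8pos of both classes, and 2 and 3 of the 7 genes of the Myc list were called higher. Of 13 p53 and DNA damage checkpoint genes 2 were called higher and 4 lower in MHCIIlow, and 1 higher and 4 lower in MHCIIhigh, where 12.1% and 9.34% of all tested genes were called higher and lower in MHCIIlow, and 11% and 7.45% in MHCIIhigh. The antiproliferative gene Btg2 was higher in both (1.28 and 2.32), while Trp53 (-1.31 and -1.09) and the DNA repair gene Brca1 (-1.58 and -1.92) were lower in both.

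Among 10859 genes outside the lists with a mean of at least 10 CPM, those whose levels over the 8 libraries were most like the mitosis mean were Cct6a, Prmt5, Stil, Arhgap11a, Gm6472, Haus5, Fam98b, Eif5a, Lrrc23 and Suclg2, with Pearson correlations of 0.990 to 0.995. This is a description over 8 libraries that fall into the 4 subsets. Cct6a, a subunit of a chaperonin, lay between 181 and 214 CPM in Tspan8neg and between 98.9 and 132 CPM in Tspan8pos. Stil, a centriole duplication factor, had the steepest Tspan8 difference of the 10 in MHCIIlow, with a log2 fold change of -2.96.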
